A study of Mus musculus with 6 samples.

Results

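Growth and tissue remodelling factors are secreted or membrane-bound proteins through which mast cells act on neighbouring fibroblasts, epithelium and vessels. The genes described here are Vegfa, Areg, Ereg, Hbegf, Pdgfa, Pdgfb, Tgfb1, Inhba, Fgf2 and Igf1, 10 genes chosen by name and read from the deposited table by their gene symbol. Of these, 9 had a probe set with that single symbol, 1 probe set each, among the 19938 genes that could be named and tested, and Areg was not analysed here. RNA came from mast cells grown from C57BL/6J bone marrow of wild type (WT) mice or of mice lacking the microRNA miR-155 (miR-155 KO), with 3 independent cultures and 3 arrays for each genotype. All 6 cultures were grown for 5 weeks with SCF at 1 ng/ml and IL-3 at 0.5 ng/ml, loaded overnight with anti-DNP IgE (0.2 µg/ml) and stimulated with the antigen DNP-HSA (20 ng/ml) for 1 h before RNA was taken. Every culture was stimulated, so the arrays compare the genotypes after antigen and hold no measure of induction by antigen. The question is whether stimulated mast cells without miR-155 differ in the mRNA of these factors.

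Mast cells store some growth factors and make others after IgE receptor cross-linking, and they are known for roles in wound repair, angiogenesis and fibrosis. The EGF family members (Areg, Ereg, Hbegf) are made as membrane precursors that proteases shed. They act on the receptor EGFR, and Ereg and Hbegf act on ERBB4 as well. Vegfa acts on endothelium, the PDGFs and Fgf2 on fibroblasts and smooth muscle, and Tgfb1 and the activin subunit Inhba through paired serine/threonine kinase receptors and SMAD proteins. Igf1 signals through the receptor IGF1R.

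The KO mice lack the miRNA shown here, since it defines the comparison. Capitals mark the seed, bases 2 to 8, through which a miRNA pairs with its target mRNAs. Both mature forms are from RefSeq (GRCm38.p6, chr16, plus strand), the 5p form at chr16:84714143-84714165 and the 3p form at chr16:84714182-84714202.
mmu-miR-155-5p: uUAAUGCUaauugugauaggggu
mmu-miR-155-3p: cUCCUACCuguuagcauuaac
The Mir155 probe set read between 2.77 and 3.17 over the 6 arrays (log2), with WT arrays at 2.93, 2.88 and 3.17 and KO arrays at 2.77, 2.91 and 2.90. It was under the array median (3.67 to 3.74) on all 6 arrays, so it checks neither the deletion nor the labels.

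The cultures carried a mast cell profile in both genotypes. Fcer1a, the IgE-binding receptor chain, had group means of 12.06 ± 0.13 in WT and 12.10 ± 0.10 in KO (log2, SD, n = 3 here and throughout), Kit, the SCF receptor, 11.89 ± 0.19 and 11.82 ± 0.10, and the granule protease Cpa3 12.78 ± 0.03 and 12.97 ± 0.18. KO replicate 1 lay apart from the other arrays, at 32.0 on a first principal component that held 48.3% of the variance, with the other KO arrays at 5.36 and 7.31 and WT values from -19.5 to -10.6. Differences that moved most with this array are given with and without it. By limma with Benjamini-Hochberg adjustment over the 19938 genes, 164 genes changed, which is 0.823% of those tested (0.507% higher and 0.316% lower in KO).

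Fgf2, Pdgfa, Hbegf and Tgfb1 were higher on every KO array than on any WT array. Their group means differed by 0.30 to 0.72 on the log2 scale, and none of these differences passed the adjusted threshold of 0.05. The gap from the highest WT to the lowest KO array ran from 0.06 (Hbegf) to 0.27 (Fgf2). Vegfa, Pdgfb and Inhba overlapped between genotypes, and Ereg and Igf1 differed by no more than 0.16 at levels under the array median. Of the 9 measured genes, 0 rose and 0 fell by limma, where 0.823% of all genes were called. At an unadjusted p under 0.05, 4 of the 9 were higher and 0 lower in KO, where 6.24% of all genes were higher and 6.45% lower. The KO arrays all lay above the WT arrays in 6 of the 9 and below in 0, where 8.18% of all genes lay above and 9.05% below. In Ereg and Igf1, both counted among these 6, the gap between the groups was 0.0019 and 0.0074. The median difference over the 9 genes was 0.16, where that over all genes was -0.01. Because the genes were chosen with earlier results of these arrays known, these shares are descriptions and no test was made on the list.

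**Figure D1:**
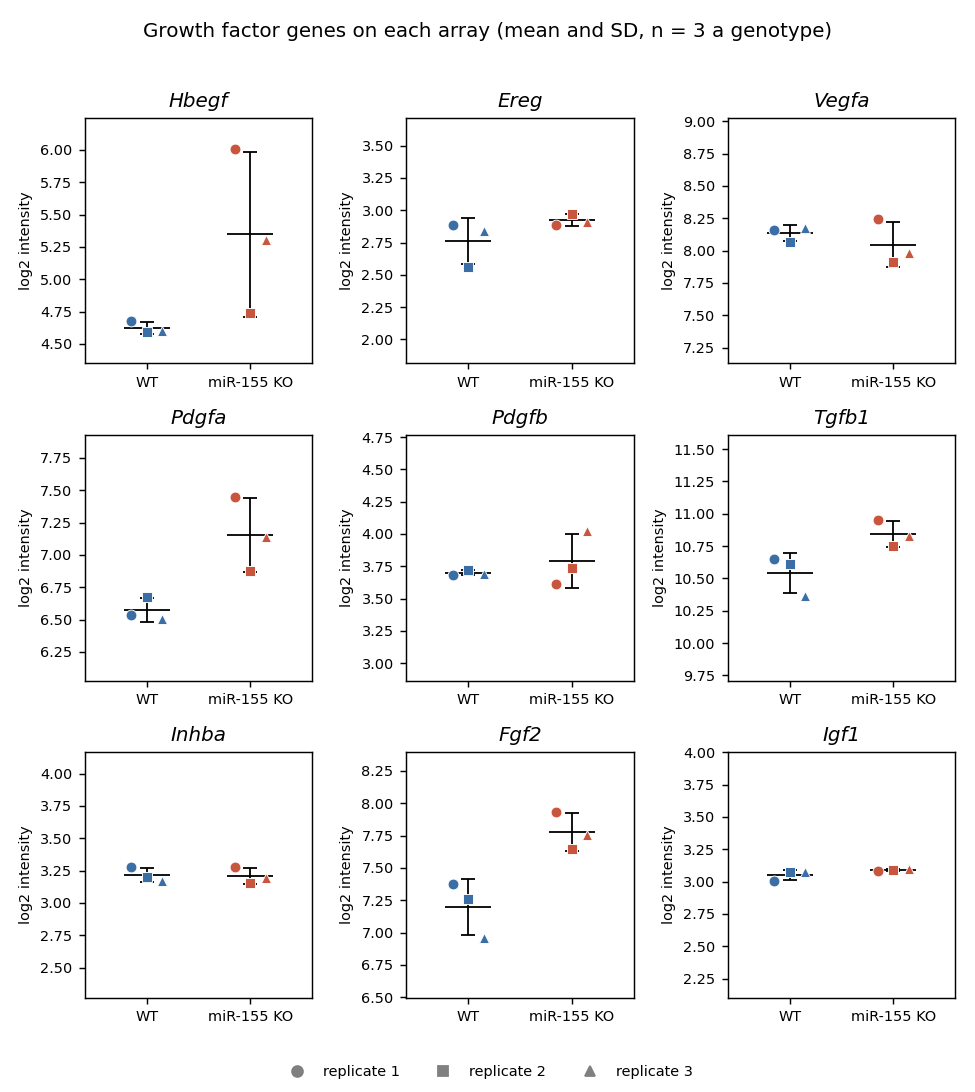
Log2 intensity (vertical axes, each spanning the same number of log2 units) of the 9 measured growth factor genes on the 3 WT and 3 miR-155 KO arrays, with symbols for the replicate and bars for the mean and SD. In Hbegf, Pdgfa, Tgfb1 and Fgf2 every KO array lies above every WT array, with KO replicate 1 highest and KO replicate 2 lowest of the 3.

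Fgf2, which encodes basic fibroblast growth factor, a mitogen of fibroblasts and endothelium held in the matrix by heparan sulfate, had the lowest p of the 9 genes. It read 7.38, 7.26 and 6.96 on WT arrays 1 to 3 and 7.93, 7.65 and 7.76 on KO arrays 1 to 3. The groups did not overlap, with WT replicate 3 the lowest array and KO replicate 1 the highest. The difference was 0.58 (SE 0.13, 95% interval 0.29 to 0.87, 1.50-fold) with an adjusted p of 0.0849 by limma. It was 0.50 without KO replicate 1 and 0.46 to 0.67 over the fits without 1 array, and its adjusted p over all the alternatives tried ran from 0.0587 to 0.391. In a bulk culture more cells that express a gene and more of its mRNA per cell cannot be told apart, for Fgf2 as for every gene below.

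The 3 genes whose values over the 6 arrays were most like those of Fgf2, among 7531 others with a mean above 5, were Zdhhc18, Tmc4 and Mtor, with Pearson r of 0.997, 0.993 and 0.991. These are descriptions over 6 arrays that share the genotype split and the position of KO replicate 1. Zdhhc18 differed by 0.38, Tmc4 by 0.31 and Mtor by 0.33, and none passed (limma adjusted p of 0.122, 0.174 and 0.167).

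Around Fgf2, the FGF ligands and receptors showed no common direction. None of the 26 measured passed by limma (0 rose and 0 fell), with 2 higher and 1 lower in KO at an unadjusted p under 0.05, and their median difference was -0.01. For this list and those below, the shares of all genes at that p were 6.24% higher and 6.45% lower. Fgf11, an intracellular FGF homologous factor, differed by -0.39 (SE 0.11, adjusted p = 0.153 by limma). Fgf10, a mesenchymal ligand of FGFR2, differed by 0.35 (SE 0.11, adjusted p = 0.217), and it was under the array median on all 6 arrays. Fgfr1, a receptor for Fgf2, read 6.51 ± 0.06 in WT and 6.65 ± 0.08 in KO.

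Pdgfa encodes the A chain and Pdgfb the B chain of platelet-derived growth factor, whose dimers drive growth and migration of mesenchymal cells. Pdgfa read 6.54, 6.68 and 6.51 on WT arrays 1 to 3 and 7.45, 6.88 and 7.14 on KO arrays 1 to 3. Every KO array was above every WT array, and the KO arrays spread more than the WT arrays did (SD 0.29 against 0.09). The difference was 0.58 (SE 0.14, 95% interval 0.26 to 0.90, 1.50-fold), with an adjusted p of 0.107 by limma. Without KO replicate 1 it was 0.43, and over the alternatives the adjusted p ran from 0.0538, without KO replicate 2, to 0.446.

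Pdgfb read 3.69, 3.72 and 3.69 on the WT arrays and 3.61, 3.74 and 4.02 on the KO arrays. The groups overlapped, and the value of KO replicate 3 set the sign of the difference, which was 0.09 (SE 0.11, 95% interval -0.16 to 0.34) with that array and -0.02 without it. These values lay on both sides of the array median, so the Pdgfb signal may be background. Of 4 other PDGF genes measured, 0 rose and 0 fell by limma (0 at an unadjusted p under 0.05), with a median difference of -0.01. The ligand gene Pdgfc differed by 0.16 (SE 0.09) and the receptor gene Pdgfra by -0.21 (SE 0.13; -0.10 without KO replicate 2 and -0.11 without WT replicate 1), and all 4 lay under the median on every array.

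Tgfb1 encodes transforming growth factor β1, which is secreted in a latent complex and is a main driver of matrix production by fibroblasts. It read 10.65, 10.61 and 10.37 on WT arrays 1 to 3 and 10.95, 10.75 and 10.83 on KO arrays 1 to 3. The groups did not overlap, with a gap of 0.10 between WT replicate 1 and KO replicate 2. The difference was 0.30 (SE 0.10, 95% interval 0.06 to 0.54, 1.23-fold), and it did not pass (adjusted p = 0.255 by limma). It was 0.25 without KO replicate 1 and 0.21 without WT replicate 3, the lowest array.

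Inhba, the βA subunit of activin A and a product of activated mast cells, read 3.28, 3.20 and 3.17 in WT and 3.28, 3.15 and 3.19 in KO. The genotypes overlapped and differed by -0.01 (95% interval -0.20 to 0.18). All 6 values were under the array median, so this probe set may have read background in both genotypes.

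The one changed gene among the pathway lists was Tgfbr2, the type II receptor that binds TGF-β and starts its signalling. Tgfbr2 read 7.23, 7.36 and 7.37 on WT arrays 1 to 3 and 6.69, 6.74 and 6.69 on KO arrays 1 to 3. The groups were well separated and both spread little (SD 0.08 in WT and 0.03 in KO). Tgfbr2 fell 1.53-fold in KO, a log2 difference of -0.61 (SE 0.08, adjusted p = 0.0179 by limma). The difference was -0.61 without KO replicate 1 as well (adjusted p = 0.0409). The call was lost without WT replicate 1, 2 or 3 (adjusted p = 0.0583, 0.0780 and 0.0771) and without KO replicate 3 (0.0667), while the difference stayed between -0.66 and -0.59.

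Of 17 receptors and SMADs of the TGF-β and activin pathway, 0 rose, 1 fell and 16 did not pass, where 0.823% of all genes changed. At an unadjusted p under 0.05, 2 were higher and 4 lower in KO, and the median difference was -0.01. Smad2, a receptor-activated SMAD that has been reported as a miR-155 target in human macrophages, differed by 0.15 (SE 0.09, adjusted p = 0.598 by limma) and by 0.08 without KO replicate 1. Acvr1b, a type I activin receptor, differed by -0.69 (SE 0.18, adjusted p = 0.124) and by -0.49 without KO replicate 1, with the KO arrays below all WT arrays. Smad2 and Acvr1b were named after their values were seen. Of 16 related ligands, latency proteins and inhibitors, 0 rose and 0 fell (limma, with 1 higher at an unadjusted p under 0.05), with a median of 0.04. Furin, the protease that cleaves the Tgfb1 precursor, read 10.93 ± 0.16 in WT and 11.36 ± 0.13 in KO, a difference of 0.44 (SE 0.11, adjusted p = 0.119) with no overlap between groups. Inhbc, an activin subunit, differed by 0.18 (SE 0.09) and lay under the array median throughout.

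**Figure D2:**
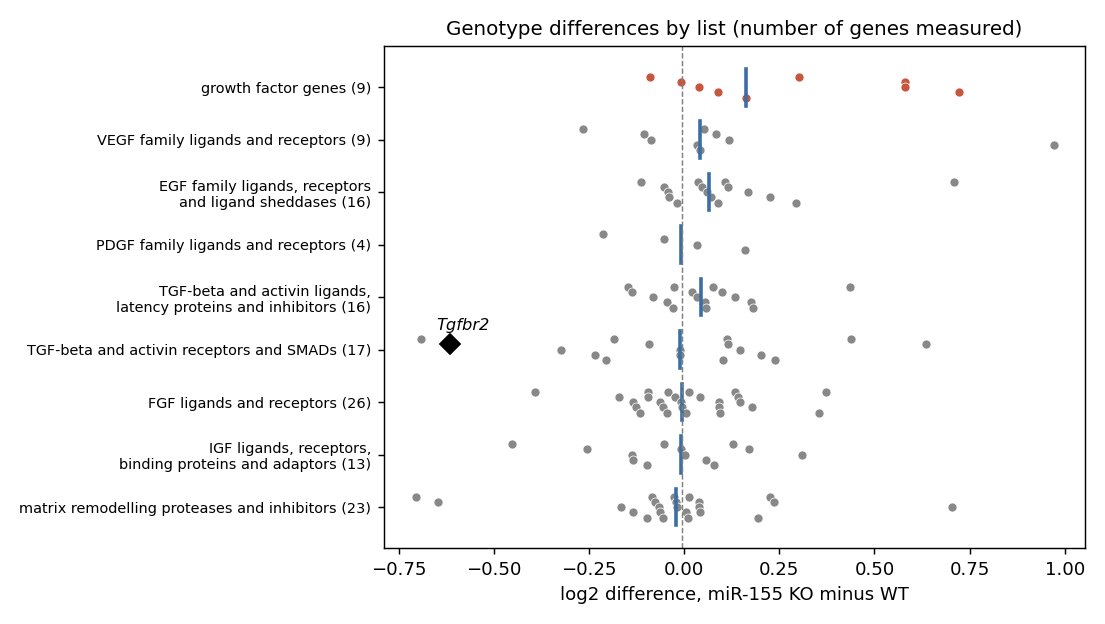
Log2 difference, miR-155 KO minus WT (horizontal axis), of each measured gene in the growth factor list and the 8 pathway lists, with the number measured in brackets. Blue bars are list medians, the dashed line is the median of all genes (-0.01), and the black diamond is Tgfbr2, the gene that passed the adjusted threshold.

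Hbegf encodes heparin-binding EGF-like growth factor, a shed ligand of EGFR that acts on keratinocytes and smooth muscle. It read 4.68, 4.59 and 4.60 on WT arrays 1 to 3 and 6.00, 4.74 and 5.30 on KO arrays 1 to 3. Every KO array was above the WT arrays, KO replicate 2 by only 0.06. The difference of 0.72 (SE 0.26, 95% interval 0.13 to 1.32, 1.65-fold) was the largest of the 9 genes and did not pass (adjusted p = 0.276 by limma). Leaving out KO replicate 1 gave 0.39 and leaving out KO replicate 2 gave 1.03 (adjusted p = 0.440 and 0.0631), so single arrays decided its size.

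Ereg, epiregulin, an EGFR and ERBB4 ligand, read 2.89, 2.56 and 2.84 in WT and 2.89, 2.97 and 2.91 in KO. It differed by 0.16 (95% interval -0.08 to 0.40), and WT replicate 2 stood lower than the other 5 arrays. Without that array the difference was 0.06. All 6 values were under the array median, and no fold is given.

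Of 16 other EGF family ligands, receptors and sheddases measured, 0 rose and 0 fell by limma, with 3 higher and 0 lower in KO at an unadjusted p under 0.05 and a median difference of 0.07. Rhbdf1, the inactive rhomboid iRhom1 that carries the sheddase ADAM17 through the secretory pathway, read 5.85, 6.17 and 5.85 in WT and 7.17, 6.36 and 6.48 in KO. The groups did not overlap, and KO replicate 1 was again the highest. The difference was 0.71 (SE 0.20, adjusted p = 0.157) and 0.46 without KO replicate 1. Adam17, which releases Hbegf, Ereg and Areg from the membrane, read 7.49 ± 0.11 in WT and 7.78 ± 0.08 in KO, a difference of 0.29 (SE 0.09, adjusted p = 0.203). Adam10, a related sheddase, differed by 0.23 (adjusted p = 0.379) and Rhbdf2, the other iRhom, by 0.09 (adjusted p = 0.795, with overlapping groups), and both were named after their values were seen. Egfr was at 2.99 ± 0.0016 in WT and 2.94 ± 0.13 in KO, under the array median on every array.

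Vegfa, vascular endothelial growth factor A, the main angiogenic factor of its family, read 8.16, 8.07 and 8.18 on WT arrays and 8.24, 7.91 and 7.98 on KO arrays. The groups overlapped, with KO replicate 1 the highest and KO replicates 2 and 3 the lowest of the 6 arrays. The difference was -0.09 (SE 0.10, 95% interval -0.33 to 0.15, adjusted p = 0.823 by limma), and it ran from -0.19 without KO replicate 1 to -0.02 without KO replicate 2. Changes of more than 0.33 downward or 0.15 upward on the log2 scale lie outside this interval, which is not adjusted for the number of genes tested.

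Of the 9 other VEGF family genes measured, 0 rose and 0 fell by limma, with 1 higher and 1 lower at an unadjusted p under 0.05 and a median of 0.04. Vegfc, the lymphangiogenic family member, read 7.00, 7.38 and 7.45 on WT arrays 1 to 3 and 8.69, 7.89 and 8.16 on KO arrays 1 to 3. Every KO array was above every WT array, and KO replicate 1 was the highest. The difference of 0.97 (SE 0.20, 1.96-fold) missed the threshold (adjusted p = 0.0715 by limma, 0.0476 to 0.422 over the alternatives). It was 0.75 without KO replicate 1. Vegfb, a ligand of FLT1, differed the other way, by -0.27 (SE 0.10, adjusted p = 0.292), with the KO arrays below all WT arrays. Kdr, the main VEGFA receptor of endothelium, lay under the median on all arrays, at 2.87 ± 0.07 in WT and 2.77 ± 0.05 in KO.

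Igf1, insulin-like growth factor 1, which macrophages and fibroblasts make in injured tissue, read 3.01, 3.07 and 3.07 in WT and 3.08, 3.09 and 3.10 in KO. The groups were separated by 0.0074 and differed by 0.04 (95% interval -0.14 to 0.21, adjusted p = 0.912 by limma). All values were under the array median. Of 13 other genes of the IGF system, 0 rose and 0 fell by limma (1 higher at an unadjusted p under 0.05), with a median of -0.01. Irs2, an adaptor of the insulin and IGF receptors, differed by 0.31 (SE 0.13, adjusted p = 0.367), and Igf2r, which clears IGF2, by -0.13 (SE 0.10; -0.07 without KO replicate 3 and -0.21 without KO replicate 2). Igf2r overlapped between genotypes and lay under the array median on every array. The receptor gene Igf1r read 4.50 ± 0.19 in WT and 4.45 ± 0.03 in KO. Igf1r, Egfr, Kdr and Fgfr1 were chosen after their values were seen.

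**Figure D3:**
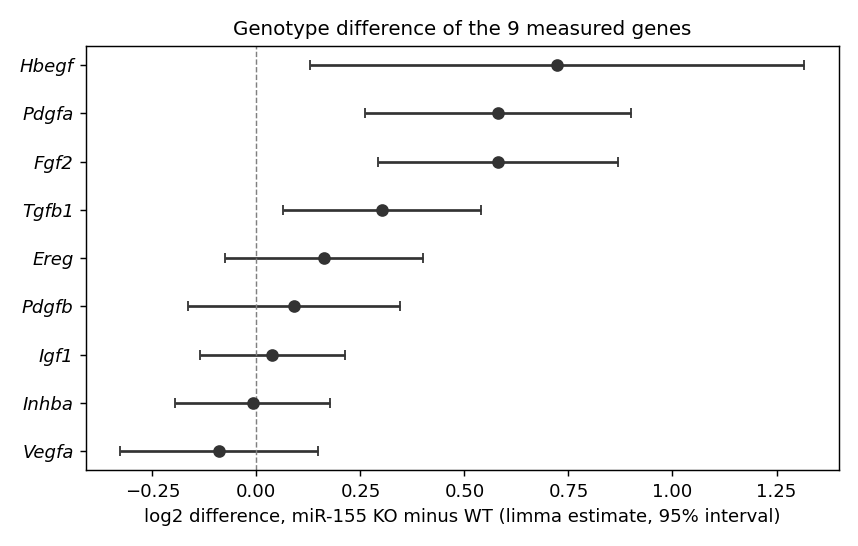
Estimated log2 difference, miR-155 KO minus WT, of the 9 measured growth factor genes, with 95% intervals from limma. The intervals of Hbegf, Pdgfa, Fgf2 and Tgfb1 lie above 0 before adjustment for the number of genes tested, and those of the other 5 include 0.

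Of 23 matrix remodelling genes measured, 0 rose and 0 fell by limma, with 1 higher and 2 lower at an unadjusted p under 0.05 and a median of -0.02. Plau, the secreted protease urokinase, read 9.46, 9.45 and 9.61 on WT arrays and 8.47, 9.06 and 8.88 on KO arrays, a difference of -0.71 (SE 0.15, adjusted p = 0.0718, alternatives from 0.0343 to 0.391). Plaur, the cell surface receptor that binds urokinase, read 5.24, 4.89 and 5.06 on WT arrays and 6.20, 5.39 and 5.70 on KO arrays, a difference of 0.70 (SE 0.19, adjusted p = 0.141, alternatives from 0.0476 to 0.504). In both genes the groups did not overlap, and KO replicate 1 lay farthest from WT and KO replicate 2 nearest. Without KO replicate 1 the differences were -0.54 and 0.49. Across the 8 pathway lists together, 0 of 124 measured genes rose and 1 fell, while 11 were higher and 8 lower at an unadjusted p under 0.05. Over all genes, 0.507% rose and 0.316% fell, with 6.24% higher and 6.45% lower at an unadjusted p under 0.05.

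**Figure D4:**
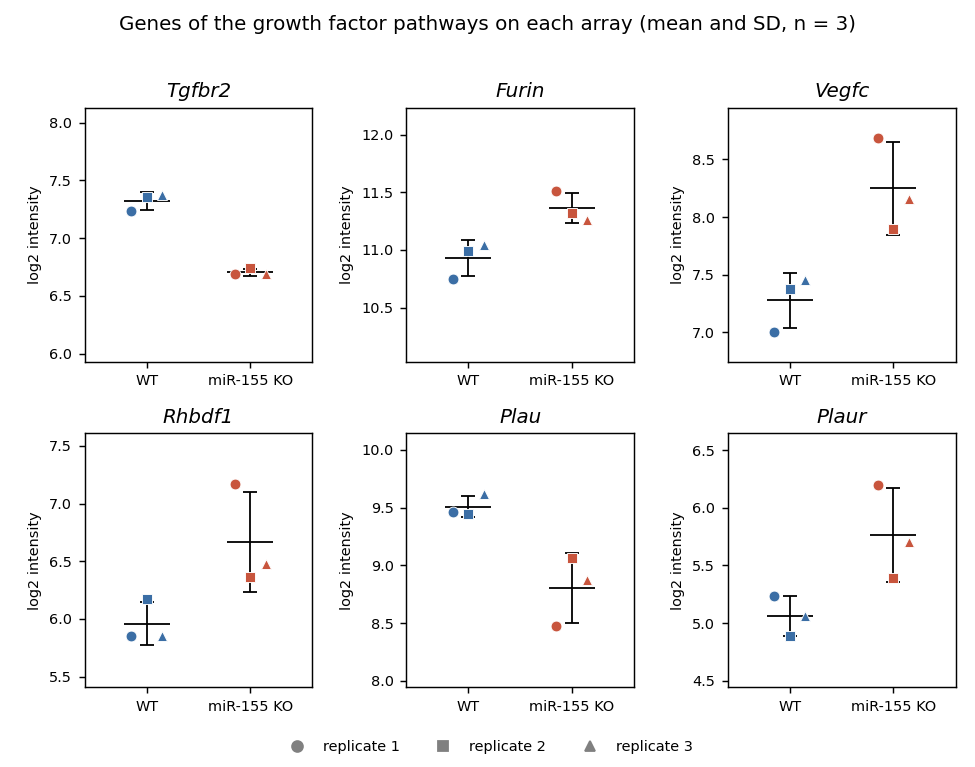
Log2 intensity on the 3 WT and 3 miR-155 KO arrays of the TGF-β receptor gene Tgfbr2, the protease genes Furin and Plau, the ligand gene Vegfc, the iRhom gene Rhbdf1 and the urokinase receptor gene Plaur, with mean and SD. Tgfbr2, the gene of these 6 that passed the adjusted threshold, has KO arrays at 6.69, 6.74 and 6.69.

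Fgf2, Pdgfa, Tgfb1 and Hbegf shared 1 order of the KO arrays, with replicate 1 highest, then 3, then 2, all above WT. This exact order held for 560 of the 19938 genes (2.81%). By its definition it could occur only among the 1631 genes with every KO array above every WT array. These 4 genes are among those 1631, so the 560 are to be read against that number. Ereg and Igf1, the other members among the 1631, did not have this order. In both, KO replicate 1 was the lowest KO array, at levels under the array median. Against the WT mean of each gene, KO replicates 1, 2 and 3 stood at 0.73, 0.45 and 0.56 in Fgf2, at 0.88, 0.30 and 0.56 in Pdgfa, at 0.41, 0.21 and 0.29 in Tgfb1 and at 1.38, 0.11 and 0.68 in Hbegf. KO replicate 1 is the array that lay apart, and its differences in these 4 genes were larger than those of the other KO arrays. Without it the differences were 0.25 to 0.50; their sign without it follows from the groups not overlapping. The part of that array's general position in them was not tested.

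Several of these factors are also made by macrophages and stromal cells, so markers of other cell types were read on the same arrays. Of 12 macrophage and monocyte markers measured, 0 rose, 1 fell and 11 did not pass, with a median difference of -0.13. At an unadjusted p under 0.05, 0 were higher and 2 lower, 2 of the 12 differences were positive, and in 3 genes the KO arrays lay below all WT arrays. Over all genes, 9566 of 19938 differences were positive, and 6.24% were higher and 6.45% lower at that p. The KO arrays lay below all WT arrays in 9.05% of all genes. The one was Cx3cr1, the fractalkine receptor, at 8.80 ± 0.20 in WT and 7.85 ± 0.23 in KO (adjusted p = 0.0280 by limma), a call lost without any single array other than KO replicate 2 (adjusted p = 0.0585 to 0.0911). The mean level of this list was 4.10 to 4.28 on WT arrays and 3.84 to 4.06 on KO arrays. Of the 12, 7 lay under the array median on all 6 arrays, among them Csf1r, Lyz2 and C1qa, and 5 did not, among them Cx3cr1, Cd68 and Adgre1 (under it on 5 arrays). Other than Cx3cr1, these were named after their values were seen. The part of these cells in the differences of Tgfb1 and the other genes was not tested. Of 14 stromal and endothelial, 6 basophil and eosinophil, 4 megakaryocyte and 12 mast cell markers, 0 rose and 0 fell by limma (0, 0, 0 and 2 higher and 1, 1, 0 and 1 lower at an unadjusted p under 0.05), and the list means were 4.27 to 4.39 in WT and 4.23 to 4.32 in KO for the stromal and endothelial genes.

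The windows around the starts of Fgf2, Pdgfa and Tgfb1 are shown. These were the 3 genes above the array median with the KO arrays apart from WT and a window among those searched. The search of member windows left out 1 chromosome. Hbegf, also above the array median with its KO arrays apart from WT, has no window here. The 3 genes shown were chosen after the values were seen, and none of them passed the test. Each window holds 250 bases before and 50 after an annotated start, read in the direction of the gene (RefSeq, GRCm38.p6). Capitals mark matches on either strand to the NFAT core GGAAA or the CRE half-site TGACG. The AP-1 motif TGANTCA and the TATA core TATAAA were searched too and have no match in these 4 windows, and no matches overlap. Fgf2 lies on the plus strand at chr3:37348403-37348702, the Pdgfa starts on the minus strand at chr5:138994232-138994531 and chr5:138994895-138995194, and Tgfb1 on the plus strand at chr7:25686752-25687051.
Fgf2: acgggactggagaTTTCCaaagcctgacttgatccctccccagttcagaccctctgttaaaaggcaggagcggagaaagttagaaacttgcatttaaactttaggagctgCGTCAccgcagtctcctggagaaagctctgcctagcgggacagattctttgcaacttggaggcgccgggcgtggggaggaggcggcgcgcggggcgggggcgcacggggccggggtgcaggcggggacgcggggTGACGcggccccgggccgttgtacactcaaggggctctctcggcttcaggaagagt
Pdgfa first start: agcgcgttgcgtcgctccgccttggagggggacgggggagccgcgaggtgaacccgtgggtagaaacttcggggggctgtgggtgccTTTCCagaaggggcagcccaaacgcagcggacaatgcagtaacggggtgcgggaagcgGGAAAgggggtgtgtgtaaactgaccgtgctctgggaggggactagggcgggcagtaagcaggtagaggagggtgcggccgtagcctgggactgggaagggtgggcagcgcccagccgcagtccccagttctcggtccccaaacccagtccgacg
Pdgfa second start: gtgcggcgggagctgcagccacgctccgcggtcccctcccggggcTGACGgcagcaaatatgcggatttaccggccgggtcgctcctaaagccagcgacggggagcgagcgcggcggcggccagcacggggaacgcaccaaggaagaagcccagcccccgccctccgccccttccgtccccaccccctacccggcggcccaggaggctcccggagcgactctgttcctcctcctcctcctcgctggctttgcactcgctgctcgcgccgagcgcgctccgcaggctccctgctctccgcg
Tgfb1: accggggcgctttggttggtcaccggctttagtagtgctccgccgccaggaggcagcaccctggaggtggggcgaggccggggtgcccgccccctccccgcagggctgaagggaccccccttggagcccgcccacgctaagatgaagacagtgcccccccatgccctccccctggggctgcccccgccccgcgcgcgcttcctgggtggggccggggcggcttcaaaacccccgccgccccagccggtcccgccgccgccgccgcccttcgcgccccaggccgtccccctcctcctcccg
The Fgf2 window holds 2 matches to the CRE half-site and 1 to the NFAT core. The first Pdgfa window holds 2 matches to the NFAT core, the second 1 to the CRE half-site, and that of Tgfb1 none of the 4 motifs. The NFAT core was found in 61.3%, the CRE half-site in 20.8%, the TATA core in 13.6% and the AP-1 motif in 7.81% of the 32851 windows of 300 bases in the table. The windows of Vegfa, Inhba and Igf1 were searched the same way. Inhba has 1 TATA core and 1 NFAT core match, Igf1 has 1 AP-1 and 4 NFAT core matches, and the 2 starts of Vegfa have 2 and 1 NFAT core matches and 0 and 1 CRE half-sites. A match is a description of letters and not a bound site.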

How the data were processed

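Gene expression was measured on Affymetrix Mouse Gene 1.0 ST arrays, 1 for each of 6 cultures. The deposited values are log2 intensities from RMA (per the submitters' processing notes). The sources used here gave no version, genome build or detection call. Of 35557 probe sets, 21789 had 1 symbol in the platform annotation, 1621 had several and 12147 were not listed. The probe set with the highest mean stood for each symbol, which gave 19938 genes. The model was fitted to every gene by lmFit and eBayes (limma 3.58.1 under R 4.3.3, genotype as the only term, two-sided, Benjamini-Hochberg over all genes, called under 0.05), which was tested on simulated data. The simulated arrays had independent noise for each gene and changes of at least 1 log2 unit. They did not test smaller changes or a shift shared by the genes of 1 array. The residual degrees of freedom were 4 and the prior added 4.68. Single-gene permutation over 3 against 3 arrays cannot go below an exact two-sided p of 0.1, so none is given. The number of arrays limits the precision.

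The members, pathway lists, marker lists and alternatives were chosen with earlier results of these data known. By rule the text names all members, each called gene of a pathway or marker list, the 2 genes with the lowest p of a pathway list with none called, Fcer1a, Kit, Cpa3, Mir155 and the 3 genes most like the member with the lowest p; other genes are marked as named after their values were seen. Of 127 pathway list genes, 124 were measured. Signal cannot be compared between probe sets, so levels are compared only within a gene, and values under the array median are given with no fold. Plots used matplotlib 3.10.9.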

Additional observations from a re-analysis of the deposited data

How the results depend on the processing

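The count of 0 growth factor genes called held under all 15 alternatives, including those without 1 array. Their count at an unadjusted p under 0.05, 4 in all, was 2 to 4 over the fits without 1 array, with 2 (Fgf2 and Pdgfa) without WT replicate 3. The median difference, 0.16, was 0.10 to 0.22 without 1 array and 0.44 over the 4 members left by the filter on dim genes (mean above 5), which dropped Hbegf at 4.99. Small differences changed sign in Pdgfb (-0.0248 to 0.180 over the fits without 1 array, below 0 without KO replicate 3) and in Inhba (0.0051 with median centring, and -0.0434 to 0.0220 over the fits without 1 array).

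Of the pathway genes 1 passed. The replicate block gave 3 (Tgfbr2, Plaur and Angpt1, at adjusted p of 0.0366, 0.0476 and 0.0355), the dim filter 3 (Tgfbr2, Plau and Vegfc), trend and robust priors 2 (Tgfbr2 and Plau), every probe set tested 0 and an ordinary pooled-variance test 0. Leaving out 1 array gave 0 to 3, with 0 without WT replicate 1, 2 or 3 or KO replicate 3 and 3 (Tgfbr2, Plau and Vegfc) without KO replicate 2. Over all genes, 164 calls became 4 with every probe set, 0 in the ordinary test (1986 genes at an unadjusted p under 0.05) and 15 to 167 without 1 array. Fits of more features adjust over more tests; the cause of the other changes was not tested. No label says that replicate numbers pair the arrays. Deviations of same-numbered arrays from their group means correlated at -0.01, -0.06 and 0.24, and not every array correlated best with its own number. With so few arrays in a group, these correlations cannot settle whether the cultures were paired. The ordinary test, the counts at an unadjusted p, the counts over all genes and the values of single pathway genes under each alternative were chosen after seeing the data.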
